A study of Mus musculus with 20 samples.

Results

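The binding sites of the mutant Sox2KE were compared with those of Sox17 in embryonic stem (ES) cells, to ask which Sox17 sites the mutant took up and which it missed. The comparison rests on 4 of 18 libraries with a peak list, 2 of Sox2KE (A and B) and 2 of Sox17 (A and B). The 5836 strongest peaks of each library, which is the length of the shortest list, were merged into 13548 regions wherever they overlapped. A Sox17 site was a region with such a peak in both Sox17 libraries, and there were 2932. A Sox2KE site had such a peak in both Sox2KE libraries, and there were 3649. A Sox17 site counted as taken up where it was also a Sox2KE site, and as missed where no interval of either whole Sox2KE list overlapped it. By these rules 830 Sox17 sites were taken up and 379 were missed, while 2025 Sox2KE sites had no interval of either whole Sox17 list.

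Sox proteins bind a short AT-rich element in the minor groove of DNA through their HMG box, and much of their choice of sites comes from partner proteins. In pluripotent cells Sox2 binds next to the POU protein Oct4 (Pou5f1) on a composite element, the canonical Sox-Oct motif. Sox17, a regulator of primitive endoderm, pairs with Oct4 on a compressed form of that element in which the Sox and octamer parts lie closer together. An HMG-box residue at the contact with Oct4 is a lysine in Sox2 and a glutamate in Sox17, and Sox2KE carries the glutamate of Sox17 in the Sox2 protein.

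The series mapped binding by chromatin immunoprecipitation and sequencing (ChIP-seq). KH2 mouse ES cells, grown with serum and leukemia inhibitory factor, received doxycycline at 1 µg/ml to induce Sox2KE, Sox17EK (the reverse exchange, Sox17 with the lysine), Sox17 or Sox2. F9 embryonal carcinoma cells were left undifferentiated or received 1 µM retinoic acid (F9+RA), after which they resemble primitive endoderm. There were 2 libraries each of Sox17EK and Sox2 in ES cells and 7 of Oct4 in the same lines (2 in each of the Sox2KE, Sox17EK and Sox2 lines, 1 in the Sox17 line). Sox17 in F9+RA cells, Oct4 in F9+RA cells and Oct4 in F9 cells had 1 library each.

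The Sox2KE, Sox17EK and Sox2 libraries name the V5 antibody alone, whereas the Sox17 libraries of ES cells name a Sox17 antibody and V5. A difference between Sox2KE and Sox17 sites can therefore not be told apart from a difference between antibodies. The Oct4 libraries of ES cells name Oct4 and V5 antibodies, so Oct4 and the induced protein of a line cannot be told apart there either, whereas those of F9 cells name Oct4 alone. All ES lines also hold their own Sox2, which a V5 antibody does not see. Each protein was expressed in 1 line, and the labels do not name A and B as separate cultures. A p-value from the Sox libraries thus reflects how A and B vary, possibly for technical reasons only. The p-value for Oct4 in ES cells reflects how 7 libraries agree in sign at the same sites.

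The Sox2KE lists held 33123 peaks (A) and 71693 peaks (B), and the Sox17 lists 10301 (A) and 5836 (B). Read depth was unknown. The score of the weakest peak kept was 229 in Sox2KE A and 657 in Sox2KE B, against 75.4 in Sox17 A and 50 in Sox17 B. The score, a number the authors' peak caller gave each peak, served to order the peaks of each list. The whole Sox2KE lists covered 21.2 and 58.6 Mb of the genome, and the whole Sox17 lists 11.3 and 5.54 Mb. Lack of a peak was thus a stricter condition for Sox2KE than for Sox17, and the number of sites without Sox17 is not set against the number without Sox2KE.

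At equal length, a Sox2KE and a Sox17 list shared 28.8% ± 6.50 of their peaks (SD over 4 pairs of libraries). The pairs ranged between 23.0% and 37.6%. The Sox2KE replicates shared 63.1% and the Sox17 replicates 51.0%, so every mixed pair lay below both replicate pairs. The exact permutation test of the 4 libraries gave p = 0.333, the smallest that 3 splits allow (adjusted p = 0.5 over 3 tests), so no call was possible. Sox2KE lists shared 44.9% ± 4.27 with Sox2, the protein from which the mutant was made (SD, 4 pairs between 40.9% and 49.5%). None of these pairs overlapped the range of the Sox2KE and Sox17 pairs. Sox2 lists shared 27.4% ± 1.46 with Sox17 (SD, 4 pairs), within the range of the Sox2KE pairs.

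The taken-up sites were 28.3% of the Sox17 sites (exact binomial 95% interval 26.7% to 30.0%, which like all intervals here covers counting error only). They were 6.13% of all merged regions, a share that the rule itself sets. The missed sites were 12.9% of the Sox17 sites (11.7% to 14.2%) and 2.8% of all merged regions. The other 1723 Sox17 sites, 58.8%, had a Sox2KE peak that was weaker or in 1 replicate alone. Sox2KE A had a peak of any strength at 2107 Sox17 sites (71.9%) and Sox2KE B at 2538 (86.6%). Both had one at 2092 sites, B alone at 446 and A alone at 15. Of the Sox2KE sites, 22.7% were sites of both proteins (21.4% to 24.1%), and 55.5% had no Sox17 peak (53.9% to 57.1%), which were 14.9% of all merged regions.

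**Figure D1:**
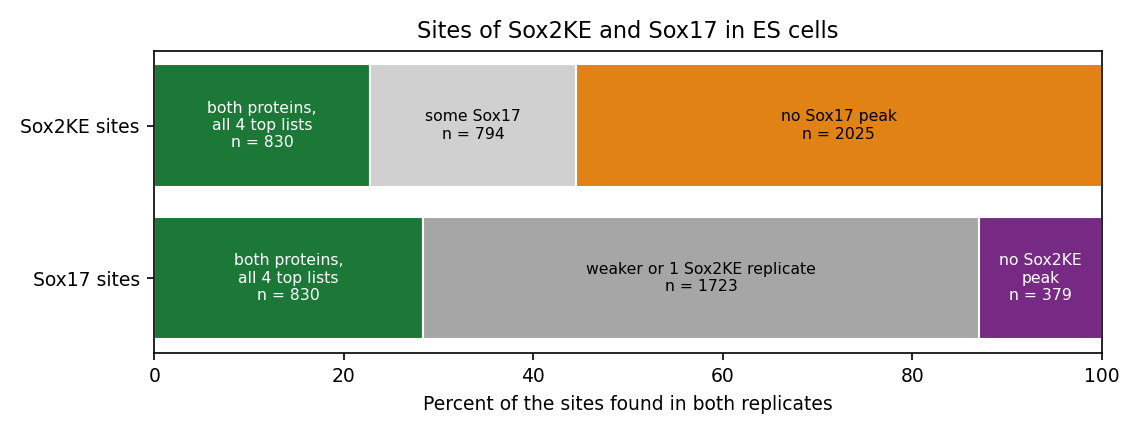
Shares of the 3649 Sox2KE sites (upper bar) and of the 2932 Sox17 sites (lower bar) in ES cells, in percent of the sites found in both replicates of the protein. The green part is the 830 sites that all 4 top lists hold; at the right end are 2025 Sox2KE sites without Sox17 (orange) and 379 Sox17 sites without Sox2KE (purple), with weaker or single-replicate sites in grey.

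Leaving out 1 library moved these shares, since that protein was then read from 1 list alone, for presence and for absence. Without Sox2KE B, the longer list, 34.0% of the Sox17 sites were taken up and 28.4% missed. Without Sox2KE A, 45.0% were taken up and 13.4% missed. Sox17 sites were more numerous when 1 Sox17 library sufficed. Without Sox17 A, 18.2% of 5778 were taken up (1053 sites) and 22.4% missed (1293). Without Sox17 B, 20.2% of 5769 were taken up (1165 sites) and 10.6% missed (612). Read from the top lists alone, 49.0% of the Sox17 sites lacked Sox2KE. With midpoints within 200 bp as the match, the taken-up share was 17.3% of 2123 Sox17 A peaks matched in Sox17 B.

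Missed sites were not the weak end of the Sox17 lists. The median Sox17 score was 191 (A) and 116 (B) at taken-up sites, 161 (A) and 117 (B) at missed sites, and 139 (A) and 88.9 (B) at the sites in between. Ranked by Sox17 and cut into 5 equal groups, the strongest held 39.6% taken-up and 17.1% missed sites, and the weakest 16.7% taken-up and 9.54% missed sites. Taken-up and missed sites were thus both more frequent among strong Sox17 sites, and the sites in between went the other way, at 43.3% of the strongest and 73.8% of the weakest group. Taken-up regions were wider (median 1716 bp) than missed regions (1000 bp). Wide regions meet more peaks by position alone, so shares after moving the regions 10 kb to either side are given with some of the values below.

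**Figure D2:**
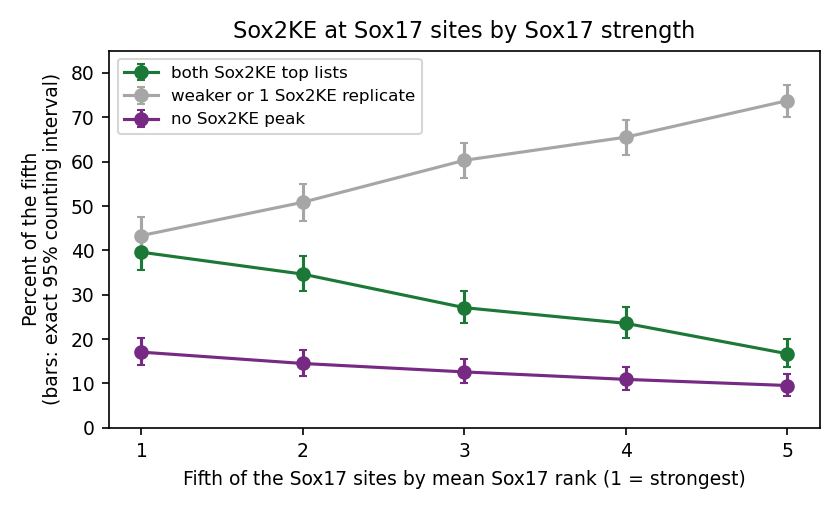
Percent of Sox17 sites by Sox2KE state (y axis) in 5 groups of 586 or 587 sites ordered by mean Sox17 rank (x axis, 1 is the strongest), with exact 95% counting intervals. Taken-up sites (green) fall to 16.7% and missed sites (purple) to 9.54% in the weakest group, while sites with a weaker or single-replicate Sox2KE peak (grey) reach 73.8%.

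The taken-up sites were nearly all sites of the wild-type protein as well. A Sox2 peak lay at 98.0% (A) and 99.3% (B) of them, against 62.8% and 58.7% of all merged regions. Only 2 of the 830 had no Sox2 peak in either list. Most Sox2KE sites had Sox2 whether taken up or not, since all 3649 had it at 93.0% (A) and 89.5% (B). Sox17EK was at 94.1% (A) and 84.9% (B), against 49.4% and 37.3% of all merged regions. Moved regions met Sox2 at 12.3% (A) and 11.7% (B). The missed sites had few Sox peaks other than Sox17. Sox2 lay at 17.7% (A) and 16.6% (B) of them and Sox17EK at 23.0% (A) and 19.8% (B), each above the 3.83% to 4.88% of moved regions. At 299 missed sites (78.9%) neither Sox2 list had a peak, and 258 (68.1%) had none in any of the 4 Sox2 and Sox17EK lists either.

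The Sox2KE sites without Sox17 were also mostly Sox2 sites. Sox2 lay at 89.6% (A) and 82.9% (B) of the 2025. Sox17EK, the Sox17 protein with the lysine, lay at 27.5% (A) and 18.5% (B). These Sox17EK shares were below those of all merged regions. They differed from those at the missed sites by 4.55 points in A (95% interval -0.33 to 8.97) and -1.32 points in B (-5.92 to 2.77). In the Sox17EK lists of 5836 peaks the shares were 6.22% (A) and 4.05% (B) at Sox2KE sites without Sox17, and 12.4% (A) and 9.50% (B) at missed sites. Those differences were -6.18 points in A (-10.0 to -3.02) and -5.45 points in B (-8.91 to -2.72), so the direction in A turned with the list length.

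At equal length, Sox2KE met 34.3% (A) and 45.1% (B) of the Sox17 sites, Sox17EK 40.8% and 36.2%, and Sox2 37.7% and 41.0%. All merged regions, which were drawn in part from the Sox2KE lists, had Sox17EK at 18.4% and 15.9%, and Sox2 at 26% and 27.4%. The mean was 39.7% ± 7.62 for Sox2KE and 39.4% ± 2.36 for Sox2 (SD, n = 2 each). The difference of 0.31 points was smaller than the spread between the Sox2KE libraries (exact permutation test, two-sided, p = 1, smallest possible 0.333). Its sign turned with the settings: it was 5.68 points without Sox2KE A and -5.24 points without Sox2KE B. At 23924 peaks a list the means were 69.6% ± 4.46 for Sox2KE and 65.8% ± 2.32 for Sox2 (SD, n = 2 each). With all peaks, where the Sox2KE lists were longer, the difference was 12.1 points. The lists therefore did not show whether the mutant met Sox17 sites more or less often than Sox2, although the sites met were in part different ones.

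That difference in sites was seen by sorting the Sox17 sites on Sox2KE and Sox2 together, a comparison chosen after the values had been seen. Lists were cut to 23924 peaks, the length of the shortest Sox2KE or Sox2 list. Sox2KE in both replicates with no Sox2 in either was found at 145 Sox17 sites, and Sox2 in both with no Sox2KE at 136. These counts depended on the list length, with 90 and 217 sites at 5836 peaks and 211 and 50 sites in the whole lists, so their balance is not read as a result. Both proteins were at 1448 sites and neither at 432. The list of Sox17 in F9+RA cells, where the labels name the Sox17 antibody alone, took no part in the sorting. It had a peak at 111 of the 145 sites with Sox2KE and no Sox2 (76.6%, 68.8% to 83.2%) and at 36 of the 136 sites with Sox2 and no Sox2KE (26.5%, 19.3% to 34.7%). The difference was 50.1 points (95% interval 39.1 to 59.2). The share was 57.9% at sites of both, 44.7% at sites of neither, and 61.1% at the other 771 Sox17 sites, whose replicates were mixed. It was 56.3% of all 2932 Sox17 sites and 39.7% of all merged regions.

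This difference is one of counts of sites in 1 F9+RA library, so it has no replicate check and no test. It was 49.5 points at the 5836 strongest peaks and 52.5 points with whole lists. With the F9+RA list itself cut to its 5836 strongest peaks it was 28.4 points, from 37.9% of the first and 9.56% of the second set. That cut list had a peak at 28.7% of all Sox17 sites and 16.6% of all merged regions. Between 36.8 points (without Sox2KE B) and 51.0 points (without Sox17 A) remained when 1 library was left out. The first set was wider, with a median of 1639 bp against 1052 bp, and moved regions met the F9+RA list at 8.62% and 4.41%. With 500 bp windows around the Sox17 A peak matched to the F9+RA list, the difference was 50.3 points. The sorting on Sox2KE and Sox2 still used the whole regions, so width was taken out of that match alone. The first set was also weaker for Sox17, with a median mean rank of 2591 against 1869. Among sites ranked above the median Sox17 site, 62.0% of 50 and 34.8% of 69 had an F9+RA peak, and among those below it 84.2% of 95 and 17.9% of 67.

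**Figure D3:**
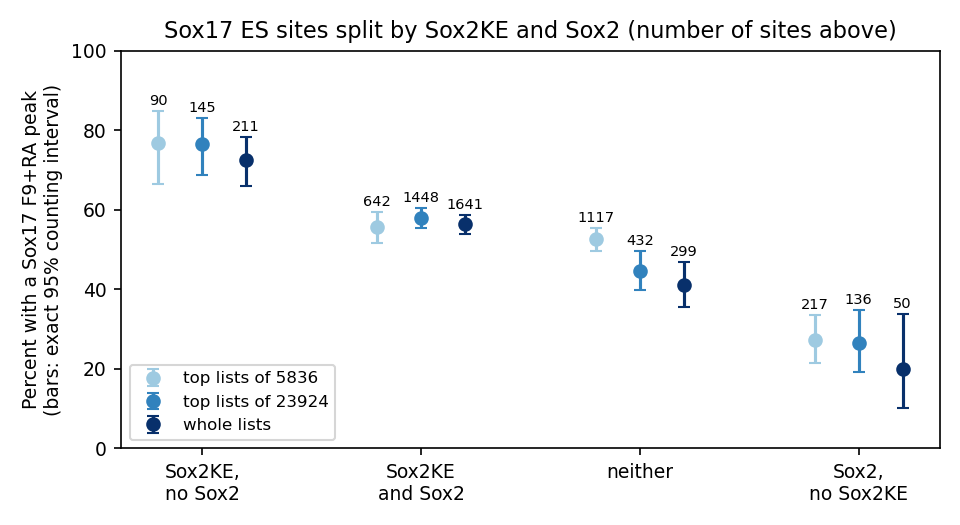
Percent of Sox17 ES sites with a Sox17 peak in F9+RA cells (y axis, exact 95% counting intervals) by whether Sox2KE or Sox2 was in both replicates and the other in neither (x axis); shades are the 3 list lengths and numbers above are sites. At each length the sites with Sox2KE and no Sox2 lie highest (72.5% to 76.7%) and those with Sox2 and no Sox2KE lowest (20% to 27.2%).

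Both sets of sites had Oct4 in F9 cells, with opposite order between the differentiated and the undifferentiated cells. Oct4 lay in the whole lists at 95.2% (F9+RA) and 86.9% (F9) of the sites with Sox2KE and no Sox2. At the sites with Sox2 and no Sox2KE it lay at 92.6% (F9+RA) and 94.1% (F9). Among the 5836 strongest Oct4 peaks the shares were 37.2% (F9+RA) and 22.1% (F9) in the first set, and 45.6% (F9+RA) and 55.1% (F9) in the second, against 21.3% (F9+RA) and 18.9% (F9) of all merged regions. In ES cells Oct4 of the Sox2KE line lay at 98.6% (A) and 95.2% (B) of the first set and at 75.7% (A) and 50% (B) of the second. Sox2KE, the induced protein of that line, took part in the sorting. So did Sox2, the induced protein of the Sox2 line, and all sorted sites were Sox17 sites by choice. Lines other than the Sox2KE line had the reverse order. Oct4 lay at 91.0% (A) and 86.2% (B) of the first set and 99.3% (A) and 97.8% (B) of the second in the Sox17EK line, and at 91.7% (A) and 82.1% (B) of the first and 99.3% (A) and 86.8% (B) of the second in the Sox2 line. In the Sox17 line it lay at 98.6% of the first set and 100% of the second. All merged regions had Oct4 at 86.5% (A) and 77.3% (B) in the Sox2KE line and 73.7% (A) and 66.0% (B) in the Sox17EK line. They had it at 84.2% (A) and 66.2% (B) in the Sox2 line and 67.9% in the Sox17 line. Sox17EK itself lay at 62.8% (A) and 41.4% (B) of the first set and 91.9% (A) and 83.8% (B) of the second, against 49.4% (A) and 37.3% (B) of all merged regions.

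Regions of the 2 sets are given with scores from each list (build mm9, positions only, without gene names), chosen after the values had been seen. Among the 10 with the best mean rank of each set, Sox17 in F9+RA cells had a peak at 6 of the first and 1 of the second. Sox17EK A had one at 5 and 10, and Sox17EK B at 4 and 10. The first region by rank with Sox2KE and no Sox2, chr14:62299577-62302435, had a weak Sox17 peak in F9+RA cells (81.9), Oct4 scores of 335 (F9+RA) and 419 (F9), and Sox17EK scores of 270 (A) and 61.7 (B). The second had a different profile. At chr5:120029304-120030912 the score was 719 (A) and 1897 (B) for Sox2KE and 93.5 (A) and 99.4 (B) for Sox17, with no Sox2 and no Sox17EK peak. In F9+RA cells the same region had scores of 1375 for Sox17 and 2246 for Oct4, and Oct4 in F9 cells 282. At chr2:159936685-159937663 Sox2KE had no peak, Sox17 scored 293 (A) and 127 (B), Sox17EK 544 (A) and 357 (B), and Sox2 1039 (A) and 732 (B). Oct4 scored 440 in F9+RA and 935 in F9 cells there, and Sox17 had no F9+RA peak. At chr5:12872522-12873664 Sox2KE scored 201 in B, below the peaks kept, and had no peak in A, while Sox17EK scored 2147 (A) and 939 (B) and Sox2 403 (A) and 505 (B).

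Taken-up and missed sites were then compared in lists other than those that chose them. The Oct4 libraries of ES cells also name V5, and the sites were chosen on the induced proteins of the Sox2KE and Sox17 lines. The values of these lines are therefore not independent of the choice. Oct4 in ES cells, at equal length, lay at 72.2% ± 6.34 of the taken-up and 11.1% ± 14.1 of the missed sites (SD over 7 libraries). All merged regions had 26.2% ± 3.92, with 33.3% and 28% for the Sox2KE line, 22% and 22.1% for the Sox17EK line, 27.6% for the Sox17 line, and 24.7% and 25.8% for the Sox2 line. The difference of 61.1 points was positive in 7 of 7 libraries (exact two-sided sign-flip permutation test, p = 0.0156, the smallest possible; Benjamini-Hochberg adjusted p = 0.0469 over 3 tests). Libraries of a line are not independent, and all 7 were read at the same sites. In the 4 libraries of the Sox17EK and Sox2 lines, which express neither protein, the difference was 59.7 points with p = 0.125, the smallest that an exact test of 4 libraries gives. These 4 libraries name V5 as well, and Sox2 and Sox17EK peaks were themselves more frequent at taken-up than at missed sites.

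In the whole Oct4 lists, every ES library had a peak at nearly all taken-up sites, between 95.8% and 100%. The missed sites differed by line. Oct4 lay there at 21.9% (A) and 5.01% (B) in the Sox2KE line, 41.4% (A) and 36.4% (B) in the Sox17EK line, 35.6% (A) and 18.5% (B) in the Sox2 line, and 92.6% in the Sox17 line. Only the Sox17 line had Oct4 peaks at most of them. The sites of Sox2KE without Sox17 gave the reverse order, with Oct4 at 99.8% (A) and 93.3% (B) in the Sox2KE line and 29.4% in the Sox17 line. The Sox2 line lay in between with its replicates apart (88.6% A, 59.3% B), and the Sox17EK line had 47.2% (A) and 34.9% (B). All merged regions had Oct4 at 86.5% (A) and 77.3% (B) in the Sox2KE line and at 67.9% in the Sox17 line, with 73.7% (A) and 66% (B) in the Sox17EK line and 84.2% (A) and 66.2% (B) in the Sox2 line. Since these libraries name V5 beside Oct4, whether the peaks are those of Oct4 or of the induced protein cannot be told apart.

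**Figure D4:**
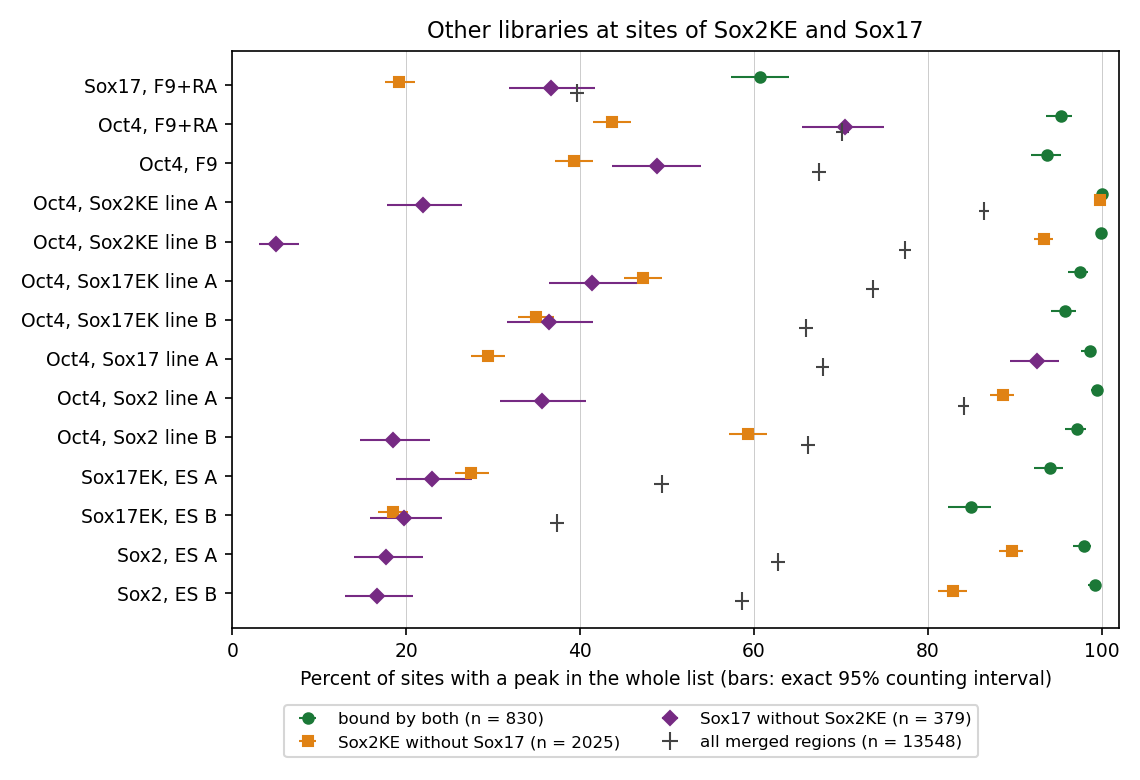
Percent of sites (x axis) with a peak in the whole list of each other library (rows), for sites bound by both proteins (green circles), Sox2KE sites without Sox17 (orange squares), Sox17 sites without Sox2KE (purple diamonds) and all merged regions (grey crosses), with exact 95% counting intervals. Green points lie at 84.9% or above in all lists but Sox17 F9+RA (60.7%), and the purple diamond of the Oct4 library of the Sox17 line stands at 92.6%.

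The F9 libraries, in which no tagged protein was induced, also had Oct4 more often at taken-up than at missed sites. In the whole lists Oct4 lay at 95.3% (F9+RA) and 93.7% (F9) of the taken-up sites. At the missed sites it lay at 70.4% in F9+RA cells (65.6% to 75%) and at 48.8% in F9 cells (43.7% to 54.0%). Over all merged regions it lay at 70.2% (F9+RA) and 67.5% (F9). In the top lists the taken-up sites had 54.1% (F9+RA) and 53.0% (F9). The missed sites had 19.8% (F9+RA) and 10.8% (F9) there, and all merged regions 21.3% (F9+RA) and 18.9% (F9). With the F9+RA list cut to the 64582 peaks of the F9 list, the shares at missed sites were 68.3% (F9+RA) and 48.8% (F9). This was a difference of 19.5 points between the cell states. Oct4 was in F9+RA cells alone at 97 missed sites and in F9 cells alone at 23. The same difference was -0.12 points at taken-up sites, -0.35 points at Sox2KE sites without Sox17, and -0.55 points over all merged regions. There was 1 library of each state, so this has no replicate check.

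Sox17 in F9+RA cells lay at 60.7% of taken-up sites (57.3% to 64.1%) and 36.7% of missed sites (31.8% to 41.7%). At Sox2KE sites without Sox17 the share was 19.2% (17.5% to 21.0%), over all Sox17 sites 56.3%, and over all merged regions 39.7%. The difference between taken-up and missed sites was 24.0 points (18.1 to 29.8). It depended on single libraries: it was 6.21 points without Sox2KE B, 31.5 without Sox2KE A, 37.5 without Sox17 A and 28.3 without Sox17 B. Within the missed sites the share was 50% in the strongest Sox17 group and 23.2% in the weakest. Oct4 at the missed sites of the strongest group was at 86.0% (F9+RA) and 64.0% (F9).

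The 10 strongest regions of each class, by mean rank in the libraries that chose them, show the same lists region by region. Among taken-up regions, chr17:39979778-39985942 scored 3100, the value at which the scores of most lists level off, in all ES libraries. The mock libraries were not analysed here, and whether it is a general artefact was not tested. At chr11:108872409-108873864 the score was 2514 (A) and 2594 (B) for Sox2KE and 2344 (A) and 1986 (B) for Sox17, close in all 4 libraries. At chr1:137081709-137084248 it was 1630 (A) and 3044 (B) for Sox2KE, 1452 (A) and 915 (B) for Sox17, and 86.6 (A) and 117 (B) for Sox17EK. The Sox17EK scores were below the weakest of its 5836 strongest peaks (195 in A and 127.7 in B), at a region among the strongest of Sox2KE and Sox17. All 10 had peaks in all 7 Oct4 ES libraries and in both Sox2 lists.

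Among the 10 missed regions, Oct4 of the Sox17 line scored between 930 and 3100. Sox17 in F9+RA cells had a peak at 9, Oct4 in F9+RA cells at 10 and in F9 cells at 8, and each Sox2 list at 2. At chr1:167783714-167785639 Sox17 scored 1820 (A) and 879 (B) in ES cells and, with retinoic acid, 1177 in F9 cells, and Oct4 scored 3122 in F9+RA cells with no peak in F9 cells. At chr8:117574891-117575975 Sox17 scored 1205 (A) and 1391 (B) in ES cells and 1232 after retinoic acid in F9 cells, and Oct4 scored 1361 (F9+RA) and 66.2 (F9). The region chr19:28208948-28210152 was unlike these. It had Sox17 scores of 1943 (A) and 1548 (B), Sox17EK of 427 (A) and 301 (B), Sox2 of 150 (A) and 156 (B), and no Sox17 peak in F9+RA cells. Sox2KE was the only Sox protein of the ES lines without a peak at that region.

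Among the 10 regions of Sox2KE without Sox17, the highest was chr14:24411369-24412959, where Sox2KE scored 2346 (A) and 3100 (B), and Sox2 1230 (A) and 824 (B). Oct4 scored 1695 (A) and 901 (B) in the Sox2KE line and 1423 (A) and 317 (B) in the Sox2 line, and had no peak in the Sox17 line or in the lists of F9 and F9+RA cells. At chr14:76675357-76677418 Sox2KE scored 2071 (A) and 3100 (B), and Sox2 256 (A) and 73.2 (B). That region had a Sox17 peak in F9+RA cells (622) and Oct4 there (774) but not in F9 cells. At chr8:29937455-29938758 Sox2KE scored 2114 (A) and 3100 (B) and Sox2 202 (A) and 129 (B), with no peak in any F9 library. Both Sox2 lists had a peak at all 10 regions.

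**Figure D5:**
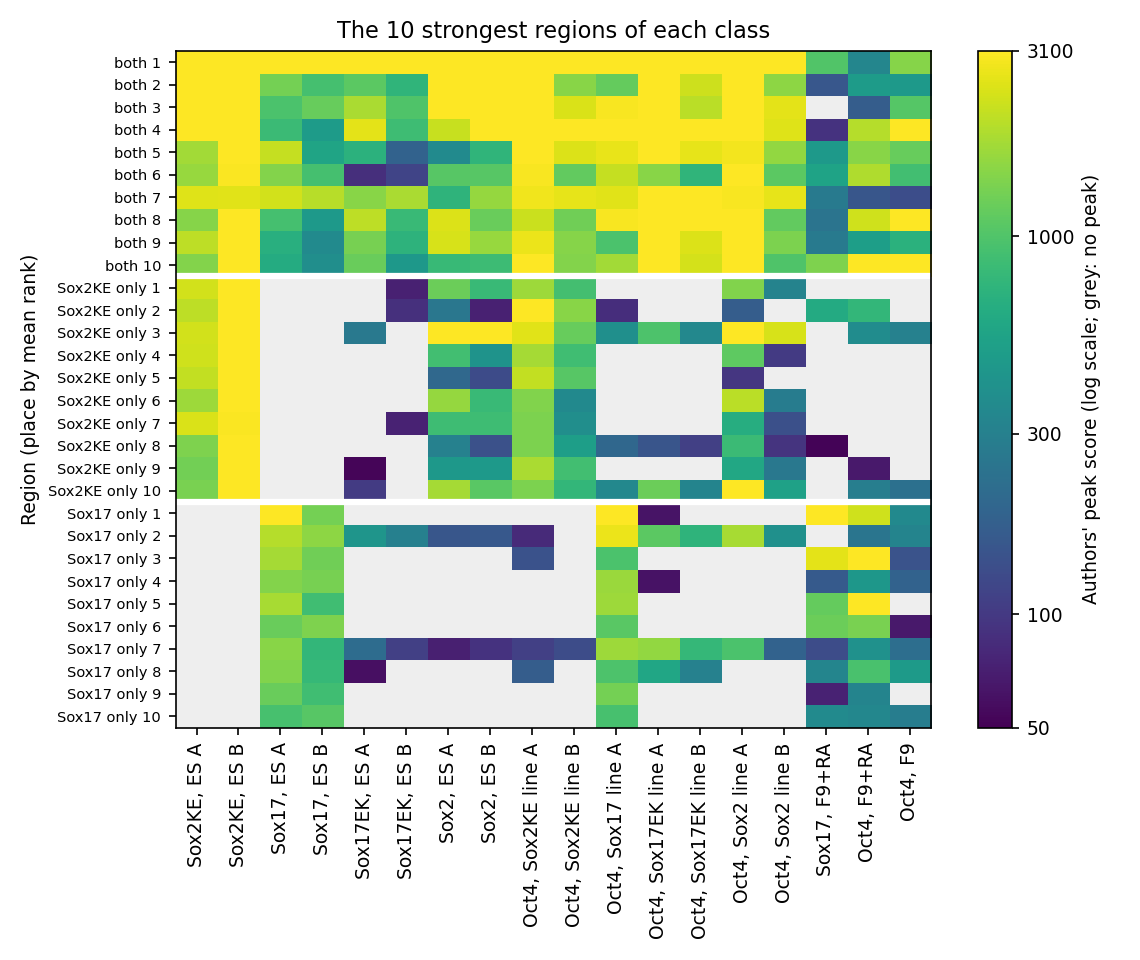
Score in each library (columns, colour on a log scale between 50 and 3100, grey where there is no peak) at the 10 strongest regions of each class (rows): bound by both, Sox2KE only and Sox17 only. Regions of both are filled in nearly all columns, whereas Sox17-only regions are filled in the Sox17 ES, Oct4 Sox17-line and F9+RA columns and mostly grey in the Sox2KE and Sox2 columns.

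The classes were spread over all chromosomes with some differences in share. Chromosome 1 held 13.6% of the taken-up sites (11.4% to 16.1%), 8.97% of the missed sites (6.29% to 12.3%) and 10.5% of all merged regions. Chromosome 2 held 4.34% of the taken-up and 10.0% of the missed sites, against 6.91% of all merged regions. Chromosome 9 held 3.61% of the taken-up and 9.23% of the missed sites, against 4.88%. The intervals of taken-up and missed sites did not overlap for chromosomes 2 and 9, and no test was made over the chromosomes.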

How the data were processed

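The authors deposited 1 peak list per library, with chromosome, start, end, a MACS peak name and a score. The score was read as 10 times −log10 p from the lowest value of each list (50 to 50.03), since no source used here states the scale. Start and end are positions in bp of build mm9, per the submitters' processing notes. For the aligner, the caller settings and the control, the entry is: not given in the sources used here. Of 20 samples, 18 had lists, and 2 mock libraries were not analysed here.

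Lists were cut to the N = 5836 strongest peaks and matched by overlap of 1 bp or more. Intervals are exact binomial, or Newcombe's for differences, at 95%. Tests over libraries were exact. They were two-sided, except that of shared peaks, which was one-sided. The counting was tested on simulated lists. Named regions are the 10 with the best mean rank in the libraries that define each class. Members and lists were chosen with earlier results of these data known. Replicate letters did not pair the libraries. Motifs and gene lists planned were not run, since the annotation used here was of GRCm38. Python 3.11.15, pandas 2.3.3, NumPy 2.4.6 and SciPy 1.17.1 were used.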

Additional observations from a re-analysis of the deposited data

Results flagged for a closer look

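Among the 7 Oct4 libraries of ES cells, the one of the Sox17 line stood apart at the missed sites, with a peak at 92.6% in its whole list and 40.9% in its top list. The next library had 41.4% in the whole lists and 13.7% in the top lists. Of 6 groups of 7 values looked at, these 2 showed such a gap. The limit used, about 1 in 20 by chance, assumes independent values. Libraries of a line are not independent, and these 2 groups are the whole and top lists of the same libraries. The missed sites were also chosen as Sox17 sites of that line, so no chance rate is drawn from this. At the Sox2KE sites without Sox17 minus the missed sites, Oct4 differed by 77.9 (A) and 88.3 points (B) in the Sox2KE line and by -63.2 points in the Sox17 line. The opposite signs were not tested, and the sites were chosen on the induced proteins of those same lines, for which the Oct4 libraries also name the V5 antibody.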

How the results depend on the processing

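Depth was unknown, so a missing peak may be a weak one. The shared share of peaks, 28.8%, was 19.8% at N = 1000, 40.7% with all peaks and 17.8% with midpoints within 200 bp. The taken-up share was 16.7% at N = 1000, 22.8% at N = 3000, 69.7% with all peaks and 17.3% by midpoints. The missed share was 17.2% (N = 1000), 14.5% (N = 3000) and 16.1% (midpoints), and 49.0% read from top lists or 36.9% from lists as long as the longer Sox17 list. With midpoints, the sites were 2123 single Sox17 A peaks matched in Sox17 B, in place of merged regions. Missed there still meant no overlap of 1 bp with either whole Sox2KE list. Sox2KE sites without Sox17 numbered 232 and 916 at N = 1000 and 3000 and 21760 with all peaks. The small difference of Sox2KE minus Sox2 at Sox17 sites changed sign at N = 1000 (-2.52 points), N = 3000 (-1.33), 50% overlap of the shorter interval (-0.069) and by midpoints (-6.31), and was 12.1 with all peaks. For Oct4 the 61.1 points were 59.7 without the Sox2KE and Sox17 lines. The call was lost there because a sign-flip test of 4 libraries cannot reach one. Sox17 F9+RA at taken-up minus missed sites was 11.6 points by midpoints, 13.0 with absence from top lists, 14.9 in its top list and 17.9 in 500 bp windows, and the difference between Sox2KE-without-Sox2 and Sox2-without-Sox2KE sites was 28.4 points in the top F9+RA list. Except by construction (longer or shorter lists, fewer libraries), the cause was not tested. Settings on 500 bp windows, crossed letters and Sox2 sorting were chosen after seeing the data.

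Leaving out 1 library gave 24.0% to 33.7% shared peaks, 18.2% to 45.0% taken up, 10.6% to 28.4% missed, 2149 to 3682 Sox2KE sites without Sox17, -5.24 to 5.68 points for Sox2KE minus Sox2, 45.8 to 60.9 points for Oct4, 6.21 to 37.5 points for Sox17 F9+RA, and 36.8 to 51.0 points for the sorting by Sox2.

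With the replicate letter as a block, same-letter pairs shared 27.4% and the Sox2KE minus Sox2 difference was 0.31 points (exact sign-flip p = 1). Deviations correlated at r = -0.153 over 2535 regions. Crossed pairs shared 30.3% on average, from 37.6% (Sox2KE B with Sox17 A) and 23.0% (Sox2KE A with Sox17 B). These were the highest and the lowest of the Sox2KE and Sox17 pairs. Whether letters were crossed was not tested. With the block the shared peaks had no test, and a sign-flip test of so few differences cannot reach 0.05. The block could therefore change no call, and the Oct4 difference was not run with it.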

Other observations

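Sites that only some lists shared add values outside the comparisons above. The 794 Sox2KE sites with a Sox17 peak that was weaker or in 1 library alone had Sox2 at 96.2% (A) and 96.1% (B), Sox17EK at 80.2% (A) and 62.0% (B), and Oct4 at 86.9% in F9+RA and 84.1% in F9 cells. They had Sox17 in F9+RA cells at 42.8%. The 1723 Sox17 sites with weaker or single-library Sox2KE had Sox2 at 65.7% (A) and 63.3% (B), Sox17EK at 73.1% (A) and 60.4% (B), Oct4 at 92.0% in F9+RA and 88.4% in F9 cells, and Sox17 in F9+RA cells at 58.4%. That last share was close to the one at taken-up sites (60.7%) and differed little over Sox17 strength, between 55.4% and 63.4% over 5 groups. All merged regions had Sox2 at 62.8% (A) and 58.7% (B), Sox17EK at 49.4% (A) and 37.3% (B), Oct4 at 70.2% in F9+RA and 67.5% in F9 cells, and Sox17 in F9+RA cells at 39.7%.

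Of the taken-up sites, 684 (82.4%) had a peak in all 4 Sox2 and Sox17EK lists as well, against 24.3% of all merged regions. Of the missed sites, 50 had Sox2 in both libraries and 30 in 1.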
